A study of Homo sapiens with 12 samples.

Results

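The comparison described here sets MDA-MB-468 cells treated with an EZH2 inhibitor and an AKT inhibitor together against cells of the same line treated with docetaxel for 24 h. It uses 6 of the 12 libraries of the series, chosen by their labels: the 3 libraries of the combination and the 3 of docetaxel at 24 h, each group lettered A to C. MDA-MB-468 is an established basal-like breast cancer line that carries an amplified EGFR gene, and the labels give it as wild type. The combination cells were kept in tazemetostat (5 µM) or vehicle over the 5 days before dosing, replated in 6 cm plates and dosed for 24 h with tazemetostat (5 µM) and ipatasertib (5 µM) in medium with 2% FBS. The protocol does not say which of these the combination libraries received over those days. The docetaxel cells were dosed at 10 nM in 10 cm plates, with serum not stated. Drug, plate, serum and the days before dosing therefore differ together between the groups and cannot be told apart, and no library of either inhibitor alone is analysed here. Libraries from DMSO-treated cells (3, with hours, serum and plate not stated) are given beside the values as a reference level. The letters are not said to be separate cultures, and p-values therefore rest on library-to-library spread that may be technical.

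EZH2 is the catalytic subunit of Polycomb repressive complex 2 (PRC2), which methylates lysine 27 of histone H3 and keeps developmental and lineage genes silent. Tazemetostat blocks that enzymatic activity without removing the protein. AKT is the kinase through which growth factor receptors and PI3K drive growth, and it holds the FOXO transcription factors out of the nucleus, so that FOXO targets and several receptor genes are released when AKT is inhibited. Docetaxel stabilises microtubules and arrests cells in mitosis.

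RNA was measured as counts per gene symbol, with 29820617 to 45807059 counts in each of the 6 libraries and the DMSO libraries within that range. Levels are given as CPM, counts scaled to library size with TMM factors, and a fold change is the fitted log2 ratio of the combination to docetaxel 24 h. The main component of variation, 68.1% of the variance over all 12 libraries, set the combination libraries apart from the other 9. The share of counts from the mitochondrial genome was 7.71% to 9.30% in the combination, 5.00% to 7.53% in docetaxel 24 h and 4.0% to 4.48% in DMSO, and its part in the results was not tested. Epithelial and line markers (EPCAM, KRT8, KRT18, KRT19, CDH1 and EGFR) were present in every group. Their summed level was 11834 to 12096 CPM in the combination and 11052 to 11160.2 CPM in docetaxel 24 h. In DMSO the sum was 11462 to 12100 CPM. EGFR alone had means of 4895 CPM in the combination, 2644 CPM in docetaxel 24 h and 3830 CPM in DMSO. The other markers together were therefore lower in the combination than in docetaxel 24 h. In these bulk libraries, fewer cells with a transcript and less of it per cell cannot be told apart.

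Of 17780 genes tested, 5709 (32.1%) were higher and 5631 (31.7%) lower in the combination at an adjusted p under 0.05 (edgeR, quasi-likelihood F test, Benjamini-Hochberg). With a difference of at least 2-fold in addition, 2113 genes (11.9%) were higher and 564 (3.17%) lower. The counts for each gene list below are to be read beside these shares of all genes. Genes past the threshold were about evenly split between the directions, differences of 2-fold or more were mostly higher in the combination, and the median log2 fold change of all genes was 0.0021. The values of the 2 groups did not overlap for 66.0% of the genes. Genes of low mean level held most of the large differences: 26.7% of the 4445 genes of lowest mean level were at least 2-fold higher, against 1.73% of the 4445 of highest level. The filter keeps a gene counted in 3 libraries, so a gene present in the combination alone is tested and has a low mean over the 12. The share at low level is thus partly set by the filter. With a stricter filter of at least 50 counts in 3 libraries, 1269 genes were at least 2-fold higher.

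**Figure D1:**
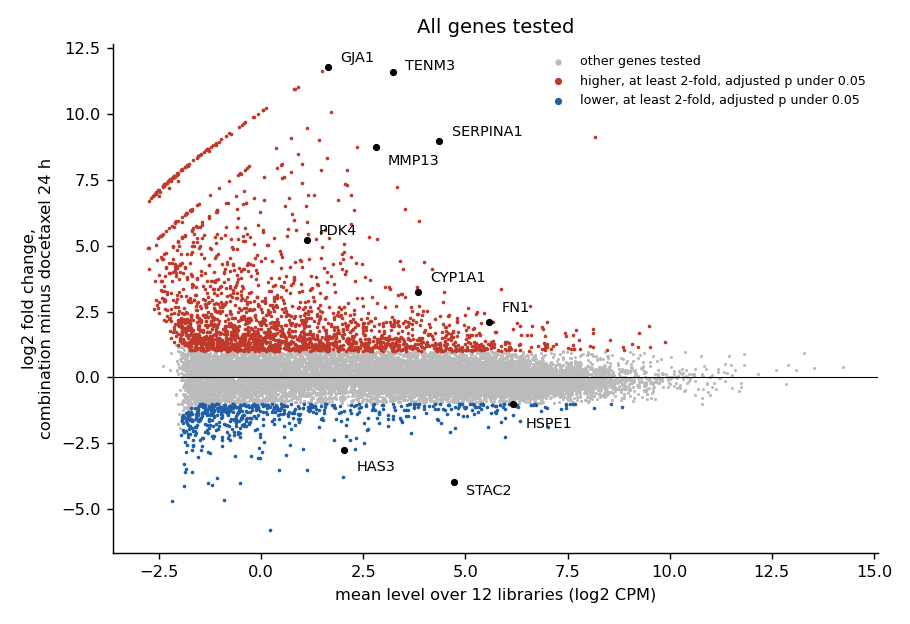
Log2 fold change (combination minus docetaxel 24 h, vertical axis) against mean level over the 12 libraries (log2 CPM, horizontal axis), 1 point per gene tested. The 2113 red genes and 564 blue genes passed the test and differed by at least 2-fold, and the largest ratios belong to genes of low mean level.

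The genes with the highest ratios were silent or nearly silent in docetaxel 24 h and in DMSO and clearly present in the combination. SERPINA1 (alpha-1 antitrypsin, a secreted inhibitor of neutrophil elastase; chr14:94376747-94390693) measured 91.3, 76.6 and 80.9 CPM in the combination libraries and 0.120, 0.123 and 0.215 CPM in docetaxel 24 h. Its log2 fold change was 8.98 ± 0.14 (SE; adjusted p = 1.4e-22, edgeR), with DMSO at 0.274 CPM on average. TENM3, a teneurin that mediates cell recognition in developing neurons, measured 39.2, 38.3 and 38.9 CPM in the combination against 1 count in all 3 docetaxel libraries, a ratio of 4351 (95% interval 780.4 to 171896) from counting error alone. These 2 genes were thus on in every combination library and at the edge of detection in every docetaxel library.

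GJA1 (chr6:121435577-121449727), the gap junction protein connexin 43, stood at 12.5, 13.8 and 12.8 CPM in the combination and had no count in any docetaxel or DMSO library. Against a floor of 3 counts over the docetaxel group it was at least 486-fold higher. The same floor gave at least 288-fold for HAPLN1, which links hyaluronan to proteoglycans, at 7.80, 7.77 and 7.52 CPM in the combination. These genes had no measured docetaxel level from which a ratio could be taken, so the values are lower bounds. The remaining genes among the 15 highest by the naming rule were RGS7, PCSK5, MAF, JAKMIP2, AOC1, SPANXB1 and SATB1, besides 4 metalloproteases. RGS7, a regulator of G-protein signalling, had a ratio of 1006 (95% interval 180.1 to 39784), and PCSK5, a proprotein convertase, of 769 (95% interval 138 to 30429). The transcription factor MAF had a ratio of 623 (95% interval 172 to 5153) and JAKMIP2 of 589 (95% interval 105 to 23294). AOC1, a diamine oxidase, had a ratio of 434 (95% interval 119.6 to 3588) and the cancer-testis gene SPANXB1 of 311 (95% interval 106 to 1513). Each of these 6 genes had 1 to 3 counts in the docetaxel group, which is why the intervals are wide. SPANXB1 belongs to a family of near-identical copies, so its reads are uncertain in origin. SATB1, a chromatin organiser, measured 10.7, 13.2 and 14.1 CPM in the combination and 0.0601, 0.0308 and 0.0215 CPM in docetaxel 24 h. In 15 of these 15 genes the DMSO mean lay nearer the docetaxel mean than the combination mean.

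AP-1 is the dimeric factor made of FOS and JUN proteins, and its classical recognition word is TGANTCA. The sequence before the RefSeq start of GJA1 is shown because this gene had no docetaxel count and because of what the search then showed. The 250 bases before that start (RefSeq, GRCh38.p14, plus strand, chr6:121435396-121435645) hold the AP-1 word, in capitals, beginning 48 bases before the start. By the GENCODE position given above, the gene begins earlier, at 121435577, inside this stretch. The word is therefore upstream of the RefSeq start but inside the GENCODE gene.
GJA1: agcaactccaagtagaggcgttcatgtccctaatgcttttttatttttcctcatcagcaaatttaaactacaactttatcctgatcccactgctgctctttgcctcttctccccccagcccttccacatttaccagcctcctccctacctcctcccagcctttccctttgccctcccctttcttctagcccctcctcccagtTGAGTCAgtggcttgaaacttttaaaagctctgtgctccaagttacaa
Among all 11892 tested genes matched to a RefSeq promoter of this length, 4.29% held TGANTCA on either strand. The share was 7.48% among the 1323 matched genes at least 2-fold higher and 5.90% among the 271 at least 2-fold lower. A match is a description of the letters and not a bound site. FOSL1, the AP-1 subunit also called FRA1, was itself higher, at 35.5, 37.1 and 37.7 CPM in the combination and 16.5, 16.5 and 20.1 CPM in docetaxel 24 h (log2 fold change 1.05 ± 0.08), and stood at 8.69 CPM in DMSO. Of 26 AP-1 and immediate early factors tested, 13 were higher and 9 lower, with a median of 0.21 (0.11 without combination library C). At least 2-fold apart were 2 higher and 2 lower members. Their log2 fold changes ran from -2.86 to 1.09 over the list, so the largest difference was opposite to that of FOSL1. This family therefore did not move in 1 direction.

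Matrix metalloproteases are the secreted enzymes that cut collagen and other matrix proteins. Their list, which also holds protease inhibitors, had the largest share of higher genes of the 52 lists. Of 18 tested proteases and inhibitors, 15 were higher and 2 lower, and 11 were at least 2-fold higher. The median was 1.77 against 0.0021 over all genes. A run of the metalloprotease genes lies side by side on chromosome 11. In map order, MMP7 (matrilysin) was slightly lower (log2 fold change -0.21), at 14.6, 12.7 and 14.7 CPM in the combination and 15.5, 17.2 and 15.9 CPM in docetaxel 24 h, and MMP20 (enamelysin) was lower, at 10 counts against 65. MMP27 had no count in any of the libraries shown, and MMP8 had 14 counts in the combination and 0 in docetaxel 24 h, too few to be tested.

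The next 5 genes of the cluster were higher in all 3 combination libraries. MMP10 (a stromelysin) had 144 counts against 1, a ratio of 172 (95% interval 30.4 to 6851). MMP1 (chr11:102789920-102798160), the interstitial collagenase, measured 21.7, 21.2 and 19.9 CPM against 0.0301, 0 and 0.0861 CPM. MMP3 and MMP12, stromelysin-1 and the macrophage elastase, had no docetaxel count, which puts them at least 272-fold and 274-fold higher, at 7.52, 6.90 and 7.39 CPM and 7.46, 7.55 and 6.96 CPM. MMP13 (chr11:102942995-102955734), a further collagenase, measured 29.6, 28.2 and 28.5 CPM against 0.0601, 0 and 0.108 CPM, with a log2 fold change of 8.77 ± 0.23 (adjusted p = 5e-19, edgeR). The difference thus covered the stretch from MMP10 to MMP13 and was in the opposite direction for MMP7 and MMP20 at the other end of the cluster, a grouping made after the values had been seen. MMPs encoded elsewhere varied: MMP14, the membrane-bound activator of MMP2, had means of 52.6 and 17.7 CPM, and MMP15 had 102 and 102 CPM. The metalloprotease inhibitor TIMP2 (269, 261 and 265 CPM against 77.1, 71.1 and 73.1 CPM) was higher as well, with a log2 fold change of 1.84 ± 0.05. SERPINE2, a protease inhibitor of the list but not a TIMP, measured 41.9, 44.4 and 44.4 CPM against 7.61, 7.86 and 7.49 CPM (2.51 ± 0.07).

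**Figure D2:**
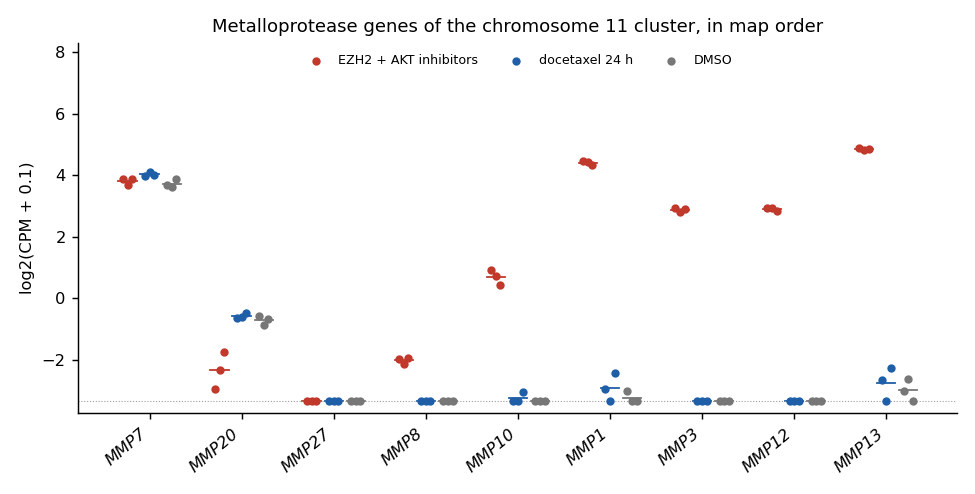
Level of 9 metalloprotease genes of the chromosome 11 cluster in map order, as log2(CPM + 0.1) on the vertical axis; each point is a library, short lines are group means and the dotted line is the value at 0 CPM. MMP10, MMP1, MMP3, MMP12 and MMP13 are at or near the dotted line in docetaxel 24 h and DMSO and above it in all 3 combination libraries.

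Genes that FOXO factors activate, together with receptors under feedback from AKT, were mostly higher. Of 27 tested, 20 were higher and 3 lower, with a median of 0.70, and 9 were at least 2-fold higher. PIK3IP1, a transmembrane inhibitor of PI3K, measured 73.7, 65.7 and 72.7 CPM in the combination and 6.94, 7.80 and 7.67 CPM in docetaxel 24 h (log2 fold change 3.24 ± 0.07; adjusted p = 5e-20, edgeR). PDK4, the kinase that shuts pyruvate dehydrogenase, measured 8.45, 8.10 and 8.80 CPM against 0.150, 0.277 and 0.237 CPM. The DMSO means of both were close to docetaxel, at 7.56 and 0.194 CPM. PINK1 (mitochondrial quality control; 1.60 ± 0.05), FOXO1 itself (1.30 ± 0.12), GABARAPL1 (autophagosome formation; 1.28 ± 0.05), the adaptor IRS2 (1.12 ± 0.09), IGF1R (1.08 ± 0.08), INSR (0.95 ± 0.07) and ERBB3 (0.61 ± 0.05) were all higher on the log2 scale. FOXO3 did not pass, at 121, 134 and 129 CPM against 122, 121 and 122 CPM, and the FOXO members that were lower were FOXO6, SESN1 and CAT.

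The kinases and lipid phosphatases of the PI3K pathway were split, with 11 higher and 11 lower of 26. AKT1 did not pass the test (123, 118 and 120.2 CPM against 133, 123 and 115 CPM), and AKT2 differed by 0.17 ± 0.04. SGK1, a kinase related to AKT, was the most increased, at 182, 200.2 and 212 CPM in the combination against 54.9, 48.2 and 51.8 CPM in docetaxel 24 h. INPP4B, a phosphatase that removes a PI3K product, followed with 1.49 ± 0.08. PIK3R1 and PIK3R3, regulatory subunits of PI3K, were lower, with log2 fold changes of -0.96 and -0.86.

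Receptor tyrosine kinases were mostly higher: 21 of 30 were higher and 3 lower, beside 32.1% and 31.7% of all genes, with a median of 0.61. EGFR measured 4606, 5305 and 4773 CPM in the combination and 2783, 2627 and 2522 CPM in docetaxel 24 h, a log2 fold change of 0.89 ± 0.08, with DMSO between them at 3829.9 CPM. AXL, a receptor for GAS6, measured 10.8, 10.2 and 10.50 CPM against 0.932, 0.740 and 0.560 CPM, and EPHB6, an ephrin receptor without kinase activity, 113, 107 and 107 CPM against 27.3, 23.7 and 26.0 CPM. The groups did not overlap for any of these genes, as for 24 of the 30 receptor kinases, beside 66.0% of all genes. Of 7 EGF-family ligands tested, 3 were higher and 2 lower. EGF (1.62 ± 0.25), EPGN (1.61 ± 0.34) and betacellulin, BTC (1.20 ± 0.13), were higher. Amphiregulin, AREG (-0.92 ± 0.19), was lower, as was HBEGF. Only 1 ligand was lower without combination library A or C or docetaxel library B. Genes induced by and restraining the MAPK cascade were also mostly higher, with 16 of 22 higher and 3 lower (median 0.64), among them ETV4 (1.15 ± 0.06), ETV5 (1.19 ± 0.07) and CCND1 (0.81 ± 0.06), which encodes cyclin D1.

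**Figure D3:**
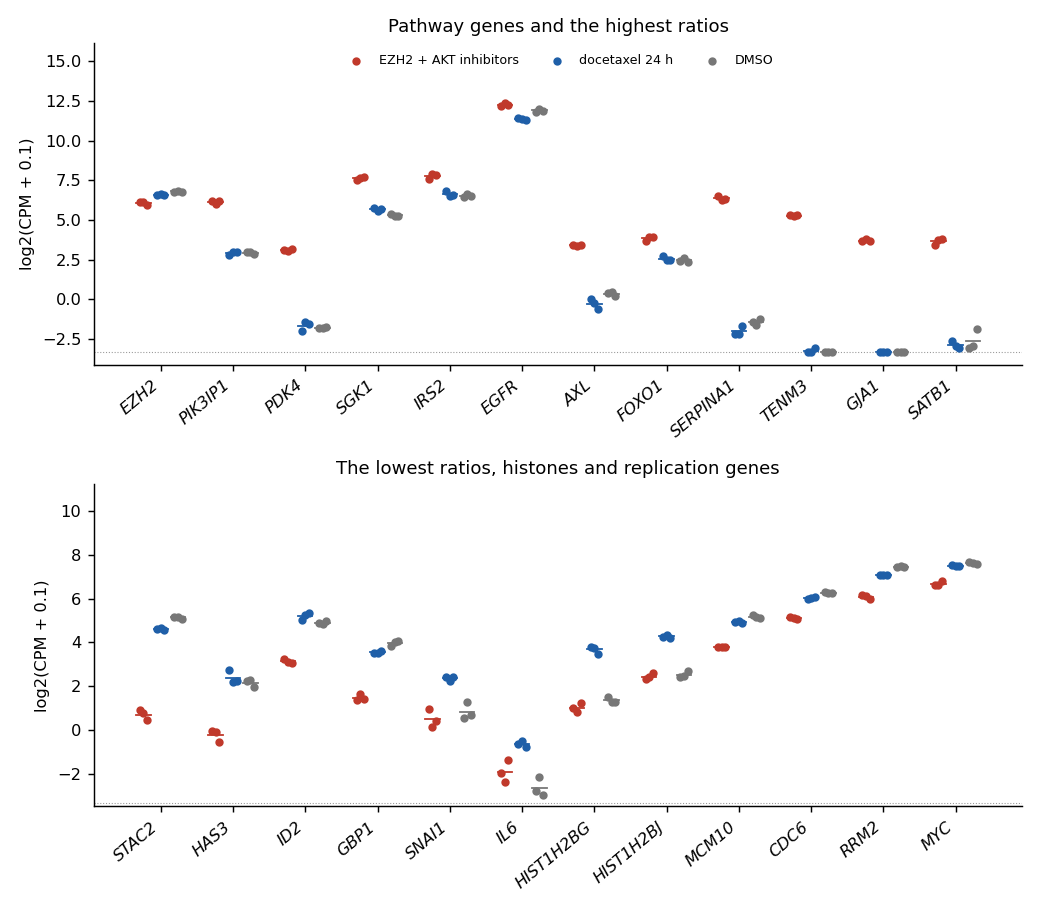
Level of 24 named genes as log2(CPM + 0.1) (vertical axis), with a point for each library and a line for each group mean; the dotted line is the value at 0 CPM. In the upper panel every gene but EZH2 is higher in the combination, and in the lower panel every gene is lower there than in docetaxel 24 h.

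EZH2 and most PRC2 components were themselves modestly lower. EZH2 measured 69.8, 69.5 and 62.8 CPM in the combination, 96.8, 98.7 and 93.4 CPM in docetaxel 24 h and 110.1, 115 and 109.6 CPM in DMSO, and its log2 fold change of -0.51 ± 0.05 was larger than the spread between libraries (adjusted p = 5.6e-09, edgeR). Because the inhibitor acts on enzyme activity, this transcript does not show whether the enzyme was inhibited. Of 13 PRC2 genes tested, 4 were higher and 9 lower, with EED (-0.40 ± 0.06), SUZ12 (-0.27 ± 0.06) and the accessory subunit MTF2 (-0.71 ± 0.06) among the lower ones. EZH1, the alternative catalytic subunit, was higher (0.49 ± 0.08).

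Developmental regulators, the classical targets of PRC2, differed in both directions: 19 of 33 tested were higher and 8 lower, with a median of 0.62, and 25 further listed genes were too low to test. With the stricter filter of 50 counts in 3 libraries, 10 were higher and 8 lower of 23, with a median of 0.15. TWIST1, a mesenchymal bHLH factor, measured 14.6, 14.6 and 18.3 CPM in the combination and 0.571, 0.524 and 0.646 CPM in docetaxel 24 h (4.75 ± 0.20). TBX3 measured 4.77, 4.96 and 5.72 CPM against 0.511, 0.524 and 0.258 CPM. SOX2, a pluripotency factor, had 64 counts in the combination and none in docetaxel 24 h, which puts it at least 25.5-fold higher. The homeobox genes IRX3 (-0.92 ± 0.05), IRX5 (-1.19 ± 0.05) and PITX1 (-0.86 ± 0.06), which were already expressed above 180 CPM in docetaxel 24 h, went the other way. Of 25 HOX genes tested, 12 were higher and 3 lower, led by HOXB9, at 1.21, 0.972 and 1.34 CPM against 0.120, 0.123 and 0.129 CPM.

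Genes of the epithelial-mesenchymal transition did not share a direction. Of 19 tested, 8 were higher and 7 lower, with a median of 0.09 that was -0.01 over the 16 left by the stricter filter. Without docetaxel library C 4 were lower. FN1, fibronectin, had 108 ± 6.79 CPM in the combination and 25.2 ± 1.65 CPM in docetaxel 24 h (mean ± SD, n = 3 each), and VIM, vimentin, 161 ± 15.6 and 67.3 ± 2.93 CPM. CDH2, N-cadherin, had 416 counts against none, at least 166-fold higher, and CDH1, E-cadherin, was lower (-0.31 ± 0.05). SNAI1, a repressor of E-cadherin, was lower at 1.83, 1.004 and 1.24 CPM against 5.20, 4.68 and 5.23 CPM, whereas its relative SNAI2 had 97 counts against 1.

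The basal list had 16 higher and 9 lower of 28 (median 0.20). Among the higher genes, ITGB4, an integrin subunit of hemidesmosomes, measured 1226, 1156 and 1224 CPM against 375, 362 and 382 CPM, the integrin subunit ITGA3 367, 367 and 375 CPM against 129.7, 113 and 123 CPM and the laminin chain LAMB3 318, 285 and 290.0 CPM against 109.6, 97.2 and 97.4 CPM. The keratin KRT5 was lower, at 969, 882 and 956 CPM in the combination and 1664, 1560.0 and 1647 CPM in docetaxel 24 h, and KRT14 slightly lower (-0.27 ± 0.06). These basal genes were singled out with their values known. Luminal genes were split at 7 higher and 8 lower of 24, beside 32.1% higher and 31.7% lower of all genes. GATA3 was higher (0.69 ± 0.05), FOXA1 lower (-0.31 ± 0.07) and KRT18 slightly higher (0.22 ± 0.07). ELF5 did not pass, at 0.433, 0.583 and 0.589 CPM against 0.571, 0.585 and 0.560 CPM. Targets of the YAP and TEAD factors were higher in 14 of 22 and lower in 4, among them ANKRD1 (71.1, 69.8 and 71.0 CPM against 8.69, 9.49 and 10.8 CPM) and NT5E, the ectonucleotidase CD73 (184, 172 and 168 CPM against 53.5, 61.1 and 57.3 CPM).

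Class I antigen presentation genes were mostly higher, and class II genes were near 0 in docetaxel 24 h. In class I, 11 of 15 were higher and 2 lower: HLA-B measured 488, 422 and 434 CPM against 126, 128 and 130.3 CPM and HLA-F 59.3, 49.1 and 50.4 CPM against 13.7, 13.6 and 14.8 CPM. HLA genes are similar in sequence and vary between people, so reads may have been shared among them. In class II, 6 of 8 were higher and 1 lower, but only 2 were left by the stricter filter, 1 higher and 1 lower with a median of 0.12. The median of the 8 was 3.20 as fitted and 2.88 with the 2 genes that had no docetaxel count, HLA-DRA and HLA-DQB1, at their lower bounds. Their levels were low even so, at 0.495, 0.356 and 0.360 CPM for HLA-DRA and 1.64, 1.68 and 1.28 CPM for HLA-DPA1 in the combination. CIITA, the master regulator of class II genes, did not pass, with means of 0.789 and 0.563 CPM.

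Interferon-stimulated genes did not move as a block, with 14 higher, 5 lower and 18 not passing of 37 (median 0.03, or 0.15 over the 29 left by the stricter filter and 0.10 without docetaxel library C). Without docetaxel library A 9 were higher, and without combination library A 8 were lower. The guanylate-binding proteins GBP1 and GBP2 went opposite ways: GBP1 measured 2.51, 3.01 and 2.62 CPM in the combination and 11.4, 11.5 and 12.3 CPM in docetaxel 24 h, GBP2 35.9, 32.4 and 32.1 CPM and 6.04, 6.25 and 6.80 CPM. Inflammatory cytokines and NF-kB feedback genes were lower in 14 and higher in 8 of 27, with a median of -0.47 that was 0.07 over the 20 left by the stricter filter, of which 10 were higher and 7 lower. Without docetaxel library A 5 were higher. IL6 was low in both groups (0.155, 0.0972 and 0.294 CPM against 0.541, 0.616 and 0.495 CPM; -1.57 ± 0.50), and STAT3, which IL6 signals through, did not pass (201, 208 and 203 CPM against 216, 214 and 203 CPM). CCL2, a monocyte chemoattractant, was the most increased of the 8 higher genes, at 10.9, 10.2 and 11.5 CPM against 0.421, 0.216 and 0.388 CPM.

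The genes of the HIST clusters, which encode the replication-dependent histones, were mostly lower and had the lowest median of the lists. Of 38 tested, 32 were lower and 1, HIST1H3E, was higher; the median was -1.33, and 24 (63.2%) were at least 2-fold lower beside 3.17% of all genes. HIST1H2BG measured 1.89, 1.68 and 2.26 CPM in the combination, 13.9, 13.2 and 11.1 CPM in docetaxel 24 h and 2.72, 2.32 and 2.36 CPM in DMSO. The DMSO libraries thus lay with the combination, as they did for 31 of the 32 lower histone genes by the distance between log2 means. HIST1H1C, a linker histone, measured 25.4, 23.3 and 24.0 CPM in the combination, 64.8, 62.3 and 71.9 CPM in docetaxel 24 h and 15.04, 15.2 and 14.98 CPM in DMSO, which was here below both groups. These mRNAs mostly lack a poly(A) tail, the libraries were made from poly(A) RNA, and the histone genes resemble each other closely, so the values come from the polyadenylated part and may be shared between copies.

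Histone H2B promoters are known for repeated CCAAT words, which the factor NF-Y recognises. The 250 bases before the annotated start of 3 H2B genes that were lower are shown so that this repeat can be seen, with CCAAT and its reverse complement ATTGG in capitals (RefSeq, GRCh38.p14). HIST1H2BJ (RefSeq H2BC11, minus strand, chr6:27132796-27133045) holds 4, HIST1H2BO (H2BC17, plus strand, chr6:27893175-27893424) holds 3 and HIST1H2BK (H2BC12, minus strand, chr6:27146859-27147108) holds 6.
HIST1H2BJ: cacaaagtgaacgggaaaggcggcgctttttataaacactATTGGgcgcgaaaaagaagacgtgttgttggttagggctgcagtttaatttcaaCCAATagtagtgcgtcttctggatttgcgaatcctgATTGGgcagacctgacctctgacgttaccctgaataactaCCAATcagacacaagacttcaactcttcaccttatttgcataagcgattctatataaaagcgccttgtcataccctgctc
HIST1H2BO: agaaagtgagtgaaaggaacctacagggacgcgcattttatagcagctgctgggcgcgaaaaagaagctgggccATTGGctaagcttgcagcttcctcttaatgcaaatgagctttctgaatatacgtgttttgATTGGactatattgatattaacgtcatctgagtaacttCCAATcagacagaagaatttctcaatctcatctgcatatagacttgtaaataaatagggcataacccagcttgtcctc
HIST1H2BK: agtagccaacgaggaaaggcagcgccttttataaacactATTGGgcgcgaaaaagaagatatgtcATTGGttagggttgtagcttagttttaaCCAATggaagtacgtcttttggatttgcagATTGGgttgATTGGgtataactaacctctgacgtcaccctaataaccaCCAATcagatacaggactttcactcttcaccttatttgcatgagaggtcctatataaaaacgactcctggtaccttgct
In each, the copy nearest the start begins 78 to 80 bases before it. Of the 32 tested histone genes with a matched promoter, 84.4% held CCAAT on either strand, against 34.6% of all 11892 matched genes. Of the 9 matched metalloprotease and inhibitor genes, a list that was mostly higher, 77.8% held it too. Promoters of both lists were poorer in CG pairs than the rest. The median number was 9 for the histone genes and 7 for the metalloprotease list, against 20 for all matched genes. The part of base content in the shares of these words was not tested. Among all genes at least 2-fold lower, these histone genes included, the share was 38.4%, and among those at least 2-fold higher 30.2%. The share of lower genes without the histone genes was not taken. The word TTTGAA, a core of the cell-cycle element CHR, was, on either strand, in 14.8% of promoters of genes at least 2-fold lower, 9.68% of those higher and 8.60% of all. The 32 histone promoters held it in 40.6% and the interferon word GAAANNGAA in 31.25%, so they add to the shares of the lower genes for these words too. The FOXO word GTAAACA was in 2.72% of promoters of genes at least 2-fold higher, 1.11% of those lower and 2.02% of all. The 3 H2B genes measured 4.89, 5.25 and 5.92 CPM (HIST1H2BJ), 0.929, 1.33 and 0.654 CPM (HIST1H2BO) and 46.4, 39.5 and 41.5 CPM (HIST1H2BK) in the combination. In docetaxel 24 h HIST1H2BJ measured 19.1, 20.2 and 18.5 CPM, HIST1H2BO 3.55, 3.82 and 3.90 CPM and HIST1H2BK 106, 112 and 112 CPM, above the combination in every library.

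Genes of DNA replication were lower as well, but there DMSO lay on the side of docetaxel. Of 43 tested, 37 were lower and 4 higher, with a median of -0.53, and 2 were higher with library totals or without combination library B or docetaxel library A or C. MCM10, which helps fire replication origins, measured 13.9, 13.8 and 13.9 CPM in the combination and 30.8, 31.2 and 29.8 CPM in docetaxel 24 h. CDC6, which loads the MCM helicase, measured 35.5, 34.4 and 33.4 CPM against 63.0, 66.0 and 66.2 CPM, and RRM2, a subunit of ribonucleotide reductase, 71.2, 68.7 and 62.4 CPM against 134, 135 and 135 CPM. The transcription factor E2F1, which drives this programme, had a log2 fold change of -0.79 ± 0.05. For 36 of the 37 lower genes the DMSO mean was nearer docetaxel, and for 31 it was above docetaxel. TOP2A, the topoisomerase that untangles sister chromatids, was among the 4 higher genes at 313, 334 and 300.3 CPM against 189, 199 and 186 CPM, with 346, 359.9 and 342 CPM in DMSO.

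Mitotic genes differed less. Of 31 mitotic kinases, cyclins and exit genes, 9 were higher and 11 lower, beside 32.1% and 31.7% of all genes. The median was -0.04, and none differed by 2-fold. CCNB1, cyclin B1, was lower at 226, 216 and 214 CPM against 257, 289.7 and 272 CPM, with 182 CPM in DMSO. PLK1 (196, 192 and 193 CPM against 199, 186 and 187 CPM) and MKI67 (177, 213 and 181 CPM against 190.4, 167 and 168 CPM) did not pass. Kinesin and kinetochore genes were lower in 19 and higher in 5 of 32 (median -0.18), with 3 higher without combination library A or B. Among inhibitors of cyclin-dependent kinases, CDKN1A (p21) measured 99.6, 96.3 and 104 CPM against 52.9, 48.7 and 45.6 CPM, CDKN1C (p57) 19.8, 16.3 and 20.9 CPM against 5.23, 5.85 and 6.72 CPM, and CDKN1B (p27), a FOXO target, differed by 0.28 ± 0.05.

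Tubulins, the subunits of the polymer that docetaxel binds, differed in both directions. Of 17 tested, 6 were higher and 9 lower. TUBA1A measured 263, 233 and 257 CPM in the combination and 62.8, 68.7 and 63.4 CPM in docetaxel 24 h, and TUBB2B 42.0, 41.1 and 35.0 CPM and 9.74, 9.37 and 10.3 CPM. TUBB6 was lower (-0.50 ± 0.05), and TUBB3 was near the threshold at 1.05, 0.777 and 0.687 CPM against 1.65, 1.08 and 1.46 CPM (adjusted p = 0.026, edgeR; 0.0733 to 0.107 when combination library B or C or docetaxel library A or C was left out). Tubulin genes are close in sequence, so reads may have been shared. MAPRE2, a protein of growing microtubule ends, had 3 counts in docetaxel 24 h and a ratio of 224 (95% interval 76.2 to 1088). Its relative MAPRE1 was lower (-0.44 ± 0.05). ABCB1, the drug efflux pump also called MDR1, measured 4.71, 5.47 and 5.53 CPM against 2.38, 2.77 and 2.17 CPM.

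Ribosome biogenesis genes were mostly lower. In ribosome biogenesis and MYC, 23 of 26 were lower and 0 higher (median -0.56): MYC measured 97.9, 98.7 and 109.6 CPM against 184, 179 and 180.5 CPM and NOP16, a nucleolar protein, 35.9, 35.8 and 33.1 CPM against 76.8, 76.8 and 85.1 CPM. At an unadjusted p under 0.05 by edgeR 0 were higher as well, and 0 by DESeq2, beside 32.1% of all genes higher. Cytosolic ribosomal protein genes, in contrast, had 43 of 73 not passing and a median of -0.03 that was 0.02 without combination library B or docetaxel library C. Its 21 lower genes became 9 to 25, and its 9 higher ones 5 to 13, when a library was left out. Nuclear-encoded respiratory chain subunits were lower in 34 of 47 and higher in 0 (median -0.31), among them SDHB (-0.57 ± 0.05) and SDHD (-0.61 ± 0.06) of complex II. At an unadjusted p 1 was higher by edgeR, and 0 were higher by DESeq2. The mRNAs encoded in the mitochondrion were higher in 8 of 13 and lower in 0 (median 0.29), but 10 of the 13 overlapped between the groups. Without docetaxel library B 4 were higher (median 0.15), and without combination library B 5 were. None was lower at an unadjusted p by edgeR (0) or by DESeq2 (0), which called 6 higher. The mitochondrial share of all counts also differed, at 7.71% to 9.30% and 5.00% to 7.53%, and its part here was not tested. MT-CO2, a subunit of complex IV, measured 9686, 9920.4 and 7695 CPM and 7692, 5079.7 and 6908 CPM.

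Chaperones of the mitochondrial matrix led the heat shock list, of which 11 of 17 were lower and 4 higher (2 without combination library A or C): HSPE1 measured 45.2, 40.4 and 41.9 CPM against 84.8, 85.4 and 89.4 CPM and HSPD1 521, 497 and 478 CPM against 876, 916 and 892 CPM. Glycolytic enzymes were lower in 16 and higher in 7 of 28, with PGK1 (-0.81 ± 0.05) and PGAM1 (-0.82 ± 0.05) the clearest. The glucose transporter SLC2A3 of the same list was higher (1.79 ± 0.15). NRF2 antioxidant genes were lower in 13 and higher in 3 of 22, the 3 higher ones being the ferritin chains FTH1 (0.80 ± 0.06) and FTL (0.89 ± 0.06) and the transporter ABCC3 (1.27 ± 0.07). Sterol genes were higher in 15 and lower in 2 of 25 (1 to 4 lower when a library was left out, 4 without combination library A; median 0.15).

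Lysosome and autophagy genes were mostly higher: 25 of 34 were higher and 1, GLA, lower (median 0.31). Cathepsin B, CTSB, measured 944, 888 and 918 CPM against 366, 384 and 386 CPM, and the peptidase TPP1 64.0, 59.0 and 62.2 CPM against 26.9, 26.1 and 28.7 CPM. Both are lysosomal proteases. CYP1A1, the main target of the aryl hydrocarbon receptor, measured 21.95, 21.9 and 20.4 CPM against 2.25, 2.40 and 2.17 CPM, while the receptor gene AHR was slightly lower (-0.28 ± 0.05).

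**Figure D4:**
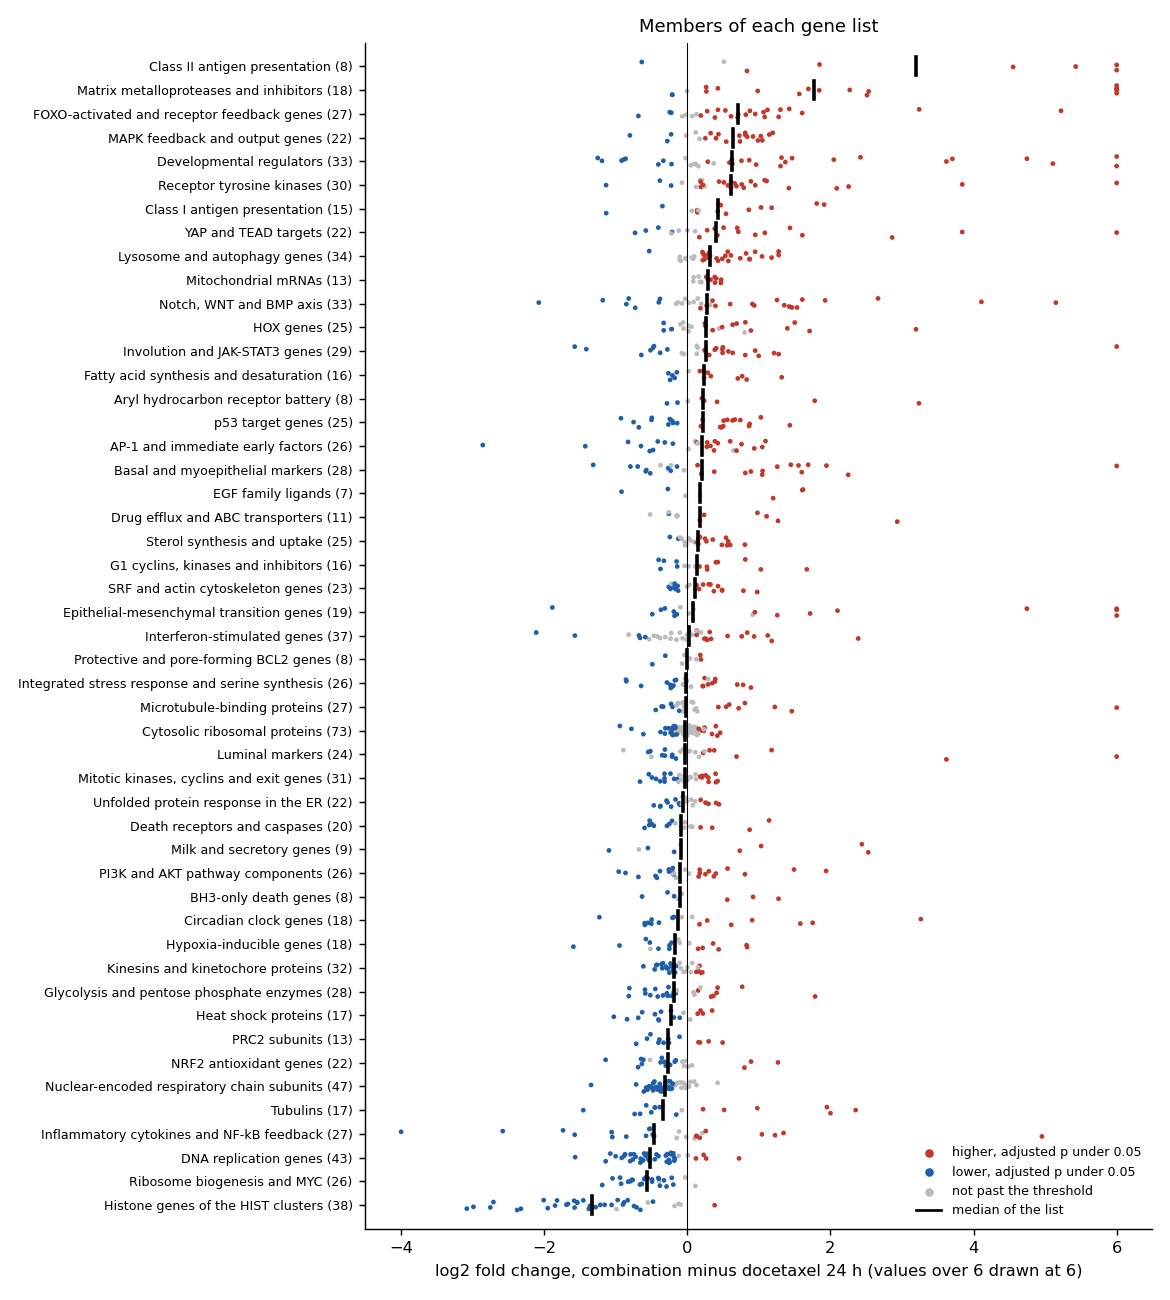
Log2 fold change (horizontal axis, combination minus docetaxel 24 h) of every tested member of the gene lists with at least 6 tested members, with the number tested in brackets; red and blue members passed the test, grey did not, black bars are medians, and values over 6 are drawn at 6. Lists run from class II antigen presentation at the top (median 3.20) to the histone genes at the bottom (median -1.33).

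Of 33 Notch, WNT and BMP genes, 17 were higher and 7 lower (median 0.27), or 72.7% past the threshold beside 63.8% of all genes. DKK1, a secreted WNT inhibitor, measured 284, 278 and 293 CPM in the combination and 72.9, 74.3 and 78.1 CPM in docetaxel 24 h, and the lower members included the BMP targets ID1, ID2 and ID3. Of 29 involution and JAK-STAT3 genes, 16 were higher and 8 lower (median 0.26). Clock genes were higher in 7 and lower in 9 of 18: RORA, a nuclear receptor that activates ARNTL, measured 3.16, 4.40 and 3.89 CPM against 0.361, 0.493 and 0.345 CPM, NPAS2, a partner of ARNTL, 48.6, 52.0 and 51.6 CPM against 16.1, 15.1 and 14.02 CPM, and the repressor PER2 5.60, 6.77 and 6.21 CPM against 14.4, 15.3 and 13.9 CPM.

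Stress and lipid lists were closer to balance. Hypoxia-inducible genes were higher in 6 and lower in 8 of 18, beside 32.1% and 31.7% of all genes. CA9, a carbonic anhydrase, measured 2.85, 3.30 and 3.43 CPM against 9.71, 9.64 and 9.54 CPM, and NDRG1 differed by 0.84 ± 0.05 in the other direction. Integrated stress response genes were split at 10 and 10 of 26, with PHGDH, the entry enzyme of serine synthesis, higher (0.78 ± 0.05) and the factor ATF5 lower (-0.86 ± 0.07). Unfolded protein response genes were higher in 5 and lower in 9 of 22, with none at least 2-fold apart. Fatty acid genes were higher in 9 and lower in 5 of 16, and the elongase ELOVL6 measured 39.6, 40.6 and 37.8 CPM against 15.3, 16.8 and 15.2 CPM. SRF and actin genes were higher in 11 and lower in 7 of 23, the LIM protein FHL2 being the most increased (0.98 ± 0.05). Of 9 milk and secretory genes, 4 were higher and 3 lower: mammaglobin, SCGB2A2, measured 4.52, 4.37 and 3.96 CPM against 0.691, 0.524 and 0.947 CPM, and the water channel AQP3 9.97, 9.004 and 9.25 CPM against 20.0, 19.8 and 20.5 CPM.

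Death genes were split in both directions. Of 8 BH3-only genes, which trigger mitochondrial apoptosis, 3 were higher and 3 lower. BMF measured 19.7, 19.9 and 19.1 CPM in the combination and 10.6, 10.3 and 10.1 CPM in docetaxel 24 h, with 12.2 CPM in DMSO. HRK measured 30.3, 33.2 and 31.2 CPM against 14.4, 13.6 and 11.3 CPM, and BBC3 (PUMA) 26.0, 25.3 and 27.5 CPM against 18.9, 17.7 and 17.0 CPM. BCL2L11 (BIM) was slightly lower, at 34.9, 34.3 and 34.3 CPM against 38.9, 37.9 and 40.7 CPM, and BID was lower (-0.63 ± 0.05). The BIM value no longer passed without docetaxel library C (log2 fold change -0.14; adjusted p = 0.0562, edgeR). Among the protective and pore-forming BCL2 genes, 2 were higher and 2 lower of 8, none by 2-fold; BCL2L1 (BCL-XL) differed by 0.18 ± 0.06 and did not pass without combination library A or docetaxel library A or B (adjusted p of 0.0903, 0.0603 and 0.095). Of 25 p53 target genes tested, 14 were higher and 11 lower (median 0.21), with MDM2 (-0.68 ± 0.05) and PLK2 (-0.93 ± 0.05) on the lower side.

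The lowest ratios among protein-coding genes that passed the naming rule belonged to STAC2 (chr17:39210536-39225872), an adaptor of calcium channels. It measured 1.76, 1.62 and 1.28 CPM in the combination, 24.4, 24.8 and 23.9 CPM in docetaxel 24 h and 35.8, 35.9 and 33.6 CPM in DMSO (log2 fold change -3.96 ± 0.09; adjusted p = 1.3e-19, edgeR). HAS3, a hyaluronan synthase, measured 0.867, 0.842 and 0.589 CPM against 6.52, 4.44 and 4.67 CPM. BBOX1, the last enzyme of carnitine synthesis, measured 1.39, 1.30 and 0.654 CPM against 6.34, 6.62 and 5.96 CPM. In DMSO STAC2 and BBOX1 were above the docetaxel mean and HAS3 below it, at 35.1, 7.08 and 4.36 CPM on average. ID2, an inhibitor of bHLH factors and a BMP target, measured 9.32, 8.65 and 8.37 CPM against 32.7, 38.1 and 40.1 CPM. The other genes of the 15 were PCDH9 (a protocadherin; -2.26 ± 0.07), SLC16A14 (-1.96 ± 0.15), the mucin MUC5B (-1.93 ± 0.10), RGS2 (-1.89 ± 0.07), the elastase inhibitor PI3 (-1.88 ± 0.08), GBP1, SNAI1 and 4 histone genes. In 10 of the 15 the DMSO mean was nearer docetaxel.

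Over all genes at least 2-fold apart, the DMSO level was usually on the docetaxel side when the combination was higher. Of the 2113 higher genes, the DMSO mean lay between the group means in 1196, below both in 905 and above both in 12. It was nearer docetaxel in 93.3%, by distance in log2(CPM + 0.1). The median levels of these genes were low, at 0.545 CPM in docetaxel 24 h, 0.559 CPM in DMSO and 2.54 CPM in the combination. A gene that passed the filter through the combination alone is near 0 in both other groups. The 93.3% is thus partly set by the filter. Of the 564 lower genes it lay between in 375, below both in 55 and above both in 134, and was nearer docetaxel in 63.3%. These positions are descriptions, since DMSO was not matched to either group in plate, serum or hours as far as the labels say.

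Markers of other cell types were low in both groups. The summed level of 8 endothelial markers was 50.6 to 52.4 CPM in the combination and 22.2 to 23.6 CPM in docetaxel 24 h, beside 30.6 to 32.9 CPM in DMSO, most of it from KDR (36.5, 37.1 and 35.8 CPM against 13.7, 13.3 and 12.3 CPM). The 10 fibroblast markers summed to 29.8 to 30.3 CPM and 19.2 to 22.5 CPM, with DCN, LUM and POSTN at 0 in docetaxel 24 h and LUM, a matrix proteoglycan, at 4.61, 4.15 and 3.76 CPM in the combination. The 12 immune markers summed to 38.7 to 45.5 CPM and 34.7 to 36.6 CPM, beside 54.5 to 57.1 CPM in DMSO. In the combination CD3D, MS4A1, LYZ and TYROBP were among the markers at 0, while CSF1R, the receptor of macrophage colony-stimulating factor, measured 15.6, 15.5 and 15.2 CPM against 2.25, 2.40 and 2.41 CPM. The part of these markers in the results was not tested.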

How the data were processed

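Deposited counts (whole numbers per gene symbol, 12 tables, per the file headers a gene and its count) were used as given. The submitters' processing notes name fastp, HISAT2 2.0.5, DESeq2 and the build hg38, without roles; no counting program, annotation or strand setting is named in those notes, so overlapping and antisense genes may share reads. Positions and gene types come from GENCODE release 29 (GRCh38), matched for 58708 of 58735 symbols; the other 27 are date-like entries holding at most 0.204% of a library's counts. Genes with at least 10 counts by edgeR's filterByExpr were kept (17780), scaled by TMM (factors 0.917 to 1.05) and fitted in R 4.3.3 with edgeR 4.0.16 (glmQLFit, a mean per group over all 12 libraries, 8 residual degrees of freedom, biological coefficient of variation 5.59%), with an adjusted p under 0.05 called. The fit was tested on simulated data first. SE is the log2 fold change over the root of its F statistic. Intervals (95%, exact binomial) and the floor of 3 counts over a group cover counting error only. Promoter words used 250 upstream bases from RefSeq (GRCh38.p14), the entry listed at the top for each gene, matched for 11892 genes. Replicate letters did not pair the libraries: same-letter correlations of deviations were all under 0.1. Named genes were the 15 highest and 15 lowest protein-coding ratios (adjusted p under 0.05, at least 5 CPM in the higher group, no overlap), up to 4 members of each of 52 lists by adjusted p, and 30 set names; others are members of those lists chosen after their values were seen. The members and lists were chosen with earlier results of these data known. Alternatives were DESeq2 1.42.0 with its size factors, library totals, the 6 libraries alone, no filter, a stricter filter, the replicate block and leaving out each library. A further deposited table of scaled values was not used here. Some list members are counted but not reported by name here.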

Additional observations from a re-analysis of the deposited data

How the results depend on the processing

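Of the 2677 genes called at least 2-fold apart, 2581 were also called by DESeq2, 2670 with library totals, 2574 of 2574 tested in the 6 libraries alone and 2631 without a filter. Without combination library A, 1 of them, SERF1B (log2 fold change 1.37 with all libraries and -0.77 without it, adjusted p 0.14), changed sign. A stricter filter (at least 50 counts in 3 libraries) tested fewer genes and left 1269 higher and 247 lower at 2-fold, 1516 in all. Leaving out each library in turn gave 10621 to 10982 genes called (5440 to 5637 higher, 5093 to 5407 lower) and 2715 to 2857 at 2-fold (2144 to 2289 higher, 547 to 633 lower). Same-letter libraries were not paired (correlations of deviations -0.13, -0.07 and -0.04); with the replicate block, 11403 genes were called, 2671 of them at 2-fold. Of the 246 named genes (233 tested under the stricter filter), calls changed only when a library was left out, for BCL2L1, BCL2L11, TUBB3 and PDGFRB. At 4-fold, the promoter shares of lower genes (38 promoters) moved to 0% for the FOXO word and for the E2F word TTTCGCGC (1.48% at 2-fold), 21.1% for CHR, 28.9% for CCAAT and 2.63% for the interferon word GAAANNGAA (10.3% at 2-fold), and the median number of CG pairs to 6 from 14 (higher genes: 14 from 17); the cause was not tested. Depth limits ratios of genes near 0 counts in docetaxel 24 h, which are bounds or wide intervals.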

Other observations

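The smallest p-value of the comparison belonged to a pseudogene that the naming rule leaves out, and it is described here because of its values. FKBP9P1, a transcribed copy of FKBP9 (chr7:55681074-55713252), measured 1161, 1137 and 1165 CPM in the combination, 2.19, 1.94 and 1.96 CPM in docetaxel 24 h and 2.42, 1.90 and 2.16 CPM in DMSO (log2 fold change 9.15 ± 0.08; adjusted p = 1.7e-28, edgeR's quasi-likelihood test). The parent gene FKBP9, elsewhere on chromosome 7, measured 145, 153 and 150.4 CPM in the combination and 118, 116 and 114 CPM in docetaxel 24 h. In DMSO it measured 139, 148 and 144 CPM, nearer the combination, unlike FKBP9P1. The assignment of reads between copies is uncertain. FKBP9P1 lies in the same part of chromosome 7 as EGFR (chr7:55019021-55211628). Of 26 other genes tested that start within 1000000 bases of it, 7 were at least 2-fold higher, beside 11.9% of all genes, and 1, AC073324.1, was at least 2-fold lower, beside 3.17%. The FKBP9P1 neighbours AC091812.1 and TUBBP6, also pseudogenes, had means of 5.84 and 0.716 CPM in the combination and 0.0244 and 0 CPM in docetaxel 24 h. VOPP1, the nearest protein-coding gene on the EGFR side, measured 1223, 1138 and 1169 CPM against 529.7, 546 and 527 CPM, while LANCL2, between VOPP1 and EGFR, was lower at 910.3, 858 and 857 CPM against 1067, 1102 and 1110.3 CPM. On the other side PSPH, the last enzyme of serine synthesis, was lower (-0.85 ± 0.05). Genes of this stretch differed in both directions, 9 higher and 8 lower of the 26, beside 32.1% higher and 31.7% lower of all genes. The stretch was chosen after its values were seen.

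Of 13953 protein-coding genes tested, 11.4% were at least 2-fold higher and 2.33% lower. Of 954 lincRNAs tested, 180 (18.9%) were at least 2-fold higher and 64 lower, and of 1062 antisense genes 156 were higher and 53 lower. Among 129 sense-intronic genes the order was the other way, with 10 higher and 20 lower. LINC02582, annotated as a processed transcript, measured 11.8, 10.8 and 12.6 CPM in the combination and had no count in docetaxel 24 h. Among coding genes of high level outside the rule, the adhesion molecule L1CAM measured 179, 192 and 194 CPM against 18.5, 16.1 and 19.8 CPM and the pregnancy-specific glycoprotein PSG5 63.6, 62.6 and 62.0 CPM against 3.07, 3.61 and 4.03 CPM, and these 3 genes were chosen after their values were seen.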
